A study of Rattus norvegicus with 8 samples.

Results

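The genes of histamine synthesis and breakdown were examined in the livers of rats fed a diet containing potassium perfluorooctanesulfonate (PFOS), a persistent fluorinated surfactant. The set of 10 genes was named by pathway and cell type: Hdc for synthesis, Hnmt, Aoc1 and Maob for breakdown, Hrh1 and Hrh2 for reception, and Cpa3, Mcpt1, Mcpt2 and Tpsb2 for the granule proteases of mast cells. Hdc entered because of its difference between the diets on these same arrays, so its values are a description and carry no test. Of the 30367 probes on the array, 8 mapped by RefSeq accession to a gene of the set, 1 probe for each of 8 genes. Hrh2 and Mcpt2 had no matched probe under these names and were not analysed here. RefSeq lists rat mast cell protease II among the older names of Mcpt1, so the Mcpt1 probe may read the gene meant by Mcpt2.

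All animals were adult male Sprague-Dawley rats, killed by exsanguination under isoflurane. The control group held 4 rats on control diet and the PFOS group 4 rats whose diet contained 50 mg/kg, both fed for 28 days. RNA from the liver of each rat was labelled with Cy5 and hybridised to its own array together with a Cy3-labelled universal reference pool of rat RNA, the same on every array. The log2 ratio is the log2 of Cy5 over Cy3 after normalisation, and a change is the PFOS mean minus the control mean. Liver RNA gave arrays with a median spot signal between 116 and 160 units, where the median local background was 71 to 75. Of the probes, 50.3% to 59.1% were well above background in Cy5, and all arrays lay on 1 slide. All 8 hepatocyte markers on the list for this cell type were well above background in Cy5 on every array.

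Histamine is made in a single step, when the pyridoxal phosphate enzyme histidine decarboxylase, encoded by Hdc, removes the carboxyl group of histidine. It is inactivated by a pair of routes. Hnmt methylates it inside cells, after which monoamine oxidase B, encoded by Maob, oxidises the methylated product, while Aoc1, the secreted diamine oxidase, deaminates histamine directly. Mast cells and basophils store histamine in granules, mast cells together with proteases such as carboxypeptidase A3 (Cpa3), the chymases Mcpt1 and Mcpt2 and the tryptase Tpsb2, and many other cell types can form histamine without storing it. Mast cells are sparse in healthy rat liver, where they lie mainly in portal tracts.

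Hdc was the one gene of the set with a large difference. Its log2 ratio was -0.92, -0.69, -0.87 and 1.07 in controls 1 to 4, and 3.18, 2.80, 4.02 and 3.42 in PFOS 1 to 4. The groups did not overlap, and control 4 stood above the other control arrays, between them and the PFOS arrays. The mean was -0.35 ± 0.95 (SD, n = 4) in the controls and 3.35 ± 0.51 (SD, n = 4) in PFOS, a difference of 3.70 (SE 0.44), or 13.0-fold. This was the 4th highest difference upward among the 15203 genes and features tested.

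The liver channel alone showed the same order. The log2 Cy5 signal of Hdc was 8.22, 8.50, 8.22 and 10.29 in controls 1 to 4 and 12.56, 12.18, 13.57 and 12.88 in PFOS 1 to 4, a change of 3.99 (SE 0.47), or 15.9-fold. Before any normalisation, the Hdc spots had a brightness of 370, 462, 304.5 and 960 units on the control arrays and of 8159, 5586, 8828 and 5904 on the PFOS arrays, over a local background of 71.5 to 77.5. Hdc was thus well above background in both groups on every array, and its fold is a measured value and no bound. The reference channel of the same spots moved little, with log2 Cy3 signals of 11.08 to 11.18 on the control arrays and 11.20 to 11.35 on the PFOS arrays, a difference of 0.13. In the authors' deposited table, Hdc had log2 ratios of -1.03, -0.82, -0.93 and 0.87 for the control arrays and 2.89, 2.54, 3.67 and 3.16 for the PFOS arrays, so control 4 stood apart there too.

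**Figure D1:**
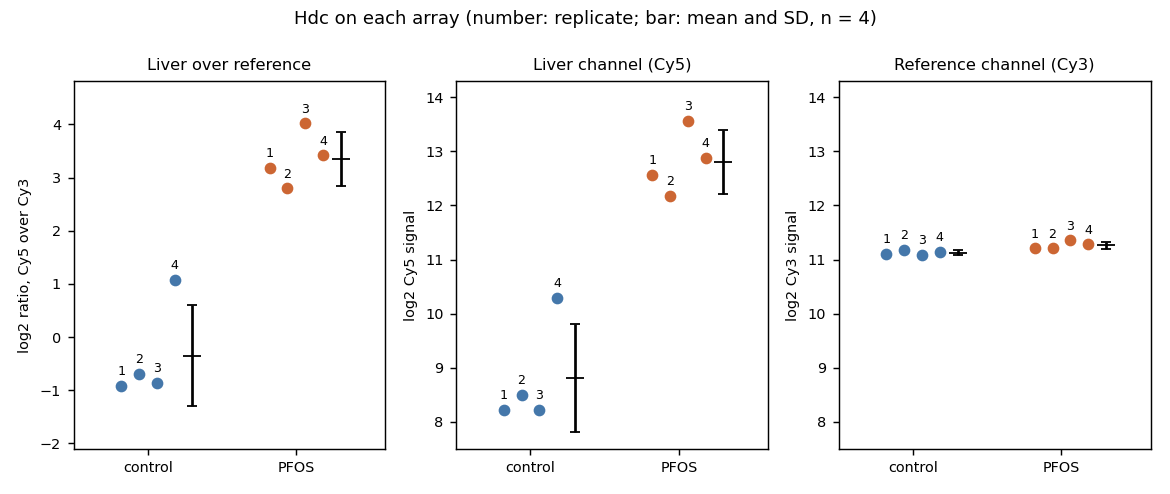
Hdc on each array, as log2 ratio of liver over reference RNA (left), log2 Cy5 signal of liver RNA (middle) and log2 Cy3 signal of reference RNA (right), with points for arrays numbered by replicate and bars for the mean and SD of 4 arrays. The PFOS arrays lie between 2.80 and 4.02 on the ratio scale, above control 4 at 1.07 and the other controls at or below -0.69, while the reference channel stays between 11.08 and 11.35.

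The Hdc difference stayed between 3.48 and 4.18 with any 1 array left out and within either slide row. Hdc was chosen on these same arrays, so these values are a description. Without control 4 the change was 4.18 (SE 0.25), or 18.1-fold, and without any 1 of the other arrays it was 3.48 to 3.89. Slide row 1, with 2 arrays of each diet, gave 3.79 (SE 0.18), and row 2, which held control 4, gave 3.61 (SE 0.65). Over the other processing settings the change was 3.54 to 3.99, with the low end in the authors' deposited table and the high end in the Cy5 channel alone. Settings that altered only the filter, the handling of several probes, the fit or the blocks left it at 3.70 by construction. Each slide row and column held both diets equally, so blocking could not move the change. The part of slide position in the difference was not tested. The plot of the Hdc change by setting shows these values.

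**Figure D2:**
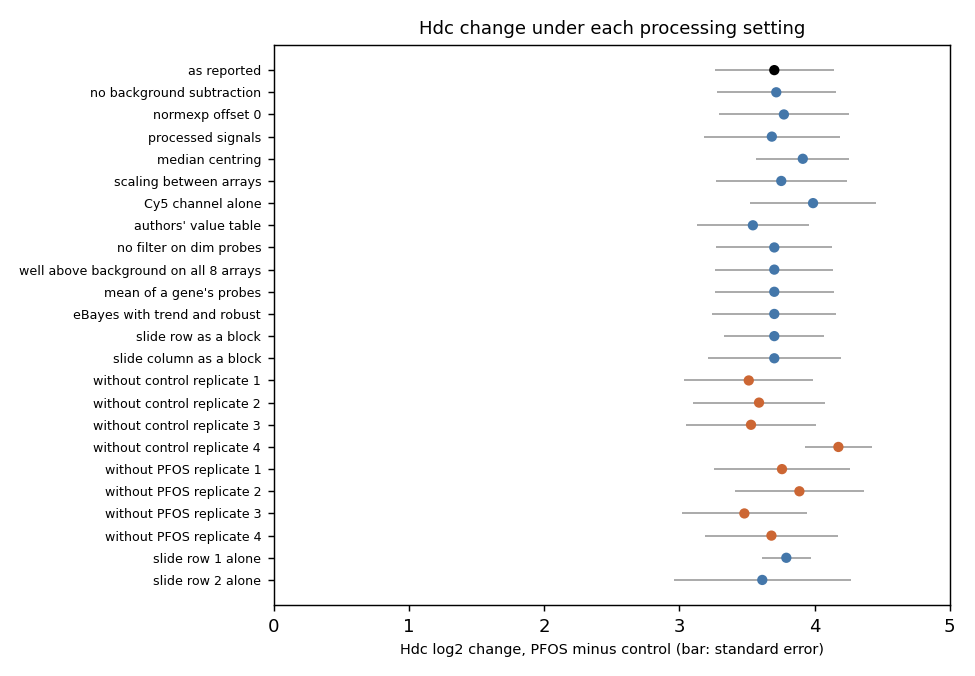
Log2 change of Hdc, PFOS minus control, under the reported processing (black), 13 other processing settings and the slide rows alone (blue) and with each array left out (orange), with standard errors as bars. All values lie between 3.48 and 4.18, and the highest is that without control 4.

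Since Hdc is the gene whose message differed, the stretch before its start is shown. The 250 bases before the transcription start of Hdc in RefSeq's GRCr8 assembly lie on the minus strand at chr3:134318705-134318954. They are printed 5′ to 3′, and the capitals mark a GC box (GGGCGG, read on both strands), which Sp-family factors bind, and a CCAAT box, which stands here in the reverse orientation.

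Hdc promoter: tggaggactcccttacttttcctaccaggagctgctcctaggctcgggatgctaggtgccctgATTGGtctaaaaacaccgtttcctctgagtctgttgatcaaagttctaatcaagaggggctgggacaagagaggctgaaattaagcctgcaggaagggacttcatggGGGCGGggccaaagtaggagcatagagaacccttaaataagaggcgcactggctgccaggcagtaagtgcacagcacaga

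The GC box spans bases 80 to 75 before the start and the CCAAT box bases 187 to 183. Of the 33469 promoter stretches of this length in the table, 30.5% held GGGCGG and 34% held CCAAT on either strand. No match was found in this window for the nuclear receptor half-site AGGTCA, which 14.1% of promoters held, for its direct repeat with 1 base between the copies, to which PPARA binds with RXR (0.0508% of promoters), for the TATA box TATAAA (12.9%), for the E-box CANNTG (65.5%) or for the GATA site GATAA (23.5%). Each was read on both strands. A match or its absence says only which letters stand in this window. The same stretch of Cpa3 held 3 E-boxes, 1 GATA site and 1 TATA box, and that of Mcpt1 held the same 3 counts. The tryptase Tpsb2 differed from both, with 2 E-boxes, 1 GC box, 1 CCAAT box and 1 half-site, and no GATA site or TATA box.

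Of the breakdown genes, Maob alone was tested, and it showed no difference of this kind. Maob, the oxidase of the outer mitochondrial membrane that acts on methylated histamine, had log2 ratios of 6.06, 6.16, 6.10 and 5.95 in controls 1 to 4 and 6.22, 5.72, 5.80 and 5.59 in PFOS 1 to 4. The groups overlapped, with PFOS 1 the highest array of all and the other PFOS arrays the lowest. Maob changed by -0.23 (SE 0.13, 95% interval -0.53 to 0.06, limma adjusted p = 0.36) and was not called. In the Cy5 channel alone it changed by -0.03 (SE 0.09). Its reference signal was faint, at 60.0 to 73.0 units over a background of 26.5 to 31.5, so the ratio carries the error of a dim Cy3 spot. As a fold, the interval of the ratio runs from 0.692 to 1.05.

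Aoc1, the diamine oxidase, was close to background in the liver. Its Cy5 brightness was 76.3, 84.7, 80.3 and 76.6 units in controls 1 to 4 and 84.8, 99.6, 97.6 and 89.3 in PFOS 1 to 4, each the mean of up to 10 spots, over a background of 71.0 to 75.8. The PFOS arrays were above the control arrays in brightness, PFOS 1 by less than 1 unit over control 2. On the ratio scale the groups overlapped, with -0.03, 0.10, 0.06 and -0.09 in the controls and 0.10, 0.35, 0.62 and 0.38 in PFOS. Aoc1 was well above background on no control array and on 1 PFOS array (PFOS 3), and so did not enter the test. No fold is given for Aoc1. With no filter on dim probes its change was 0.35 (SE 0.11, limma adjusted p = 0.172 over 26896 features).

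For the methyltransferase and the receptor the probes gave no reading in either RNA. Hnmt, which methylates histamine, had Cy5 values of 66.0 to 74.0 units over a background of 70.5 to 78.0 and Cy3 values of 28.5 to 34 over 23.5 to 29.5. Hrh1, the Gq-coupled histamine receptor of smooth muscle and endothelium, had 68.8 to 74.8 units in Cy5 over 70.0 to 75.5 and 32 to 37 in Cy3 over 23.8 to 28.5. Neither was well above background on any of the 8 arrays in Cy5 or in Cy3. The reference pool shows no signal for these probes, so the arrays cannot tell an absent transcript from a probe that does not detect it, and no level or change of Hnmt or Hrh1 is given.

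The mast cell proteases were set beside Hdc. Mcpt1, a mast cell chymase, had log2 ratios of -4.92, -4.92, -4.51 and -4.57 in controls 1 to 4 and -4.98, -4.65, -4.57 and -4.41 in PFOS 1 to 4. The groups overlapped over nearly their whole range. Its Cy5 brightness was 154, 163, 171 and 126.5 units in the controls and 164.5, 183, 115.5 and 142 in PFOS, about 1.66 to 2.40 times the local background, while the reference gave 13677 to 14878 units on the same spots. The probe therefore responded strongly to its target in the reference pool and weakly in liver. Mcpt1 changed by 0.08 (SE 0.15, 95% interval -0.25 to 0.41, limma adjusted p = 0.802) and by 0.05 (SE 0.10) in Cy5 alone. As a fold, the interval of the ratio runs from 0.842 to 1.33. The offset added to the signals makes differences between dim spots smaller, so this interval does not bound the fold of the transcript. With the normexp offset at 0 the change was 0.07 (SE 0.15).

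Cpa3, the mast cell carboxypeptidase, was fainter still in liver. It gave 92.3, 90.8, 89.0 and 88.8 units in Cy5 in controls 1 to 4 and 92.0, 93.0, 78.0 and 88.5 in PFOS 1 to 4, over a background of 69.3 to 76.5. It was well above background on 2 control arrays (controls 1 and 2) and on no PFOS array, and its reference signal was 2048 to 2239 units. Tpsb2, a tryptase, was at 76.0 to 88.8 units in the controls and 72.0 to 91.8 in PFOS, not well above background in Cy5 on any array, and in Cy3 it was well above background on 1 array (PFOS 4). The reference signal of Tpsb2 was 36 to 46 units over a background of 26.5 to 30.8. An absent Tpsb2 transcript thus cannot be told from a probe that does not detect it. No fold is given for Cpa3 or Tpsb2. Members of the Mcpt and tryptase families resemble each other in sequence and can bind one another's probes, so these values are uncertain as to the gene.

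**Figure D3:**
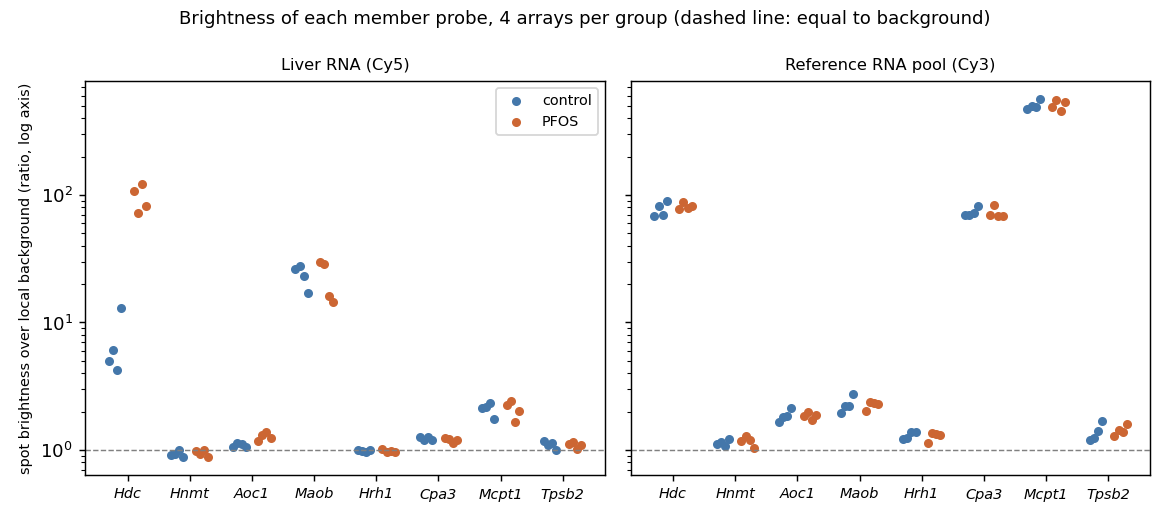
Brightness of the spots of each member probe divided by the local background, on a log axis, in liver RNA (Cy5, left) and reference RNA (Cy3, right), with 1 point per array for 4 control and 4 PFOS arrays and a dashed line where the spot equals its background. In liver, Hdc differs between the groups, Mcpt1 stays at 1.66 to 2.40 times background in both, and Cpa3 stays at 1.13 to 1.26. Heights of different probes are not comparable.

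Of the 8 genes with a probe, 3 passed the filter on dim probes (a Cy5 signal well above background on 4 or more arrays), namely Hdc, Maob and Mcpt1. Of these, 1 was called at a limma adjusted p under 0.05, Hdc, and 0 were called lower, against 3.97% of all 15203 features tested, 1.83% called higher and 2.14% called lower. In Cy5 alone it was again 1 of 3, Hdc, against 4.74%. Hdc was chosen on this contrast and nothing is read from that count. The groups did not overlap for Hdc alone among the 3, against 12.8% of all features.

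A wider mast cell list, which holds the proteases again and so is not a separate observation, was read beside them. It held 20 genes, among them Kit, the stem cell factor receptor, the IgE receptor chains Ms4a2, Fcer1a and Fcer1g, the transcription factor Gata2, and 18 had a probe. In the reference, 15 of the 18 were well above background on all 8 arrays. In liver, 6 were well above background on all 8 arrays and 9 on none, among them Ms4a2, Fcer1a, Gata2, Tpsab1, Mcpt4 and Tph1. Kit was well above background on 2 control arrays and 1 PFOS array. The 6 tested genes had changes of -0.18 to 0.18 with a median of 0.02, and none was called (lowest limma adjusted p = 0.461), where the median over all features was -0.01. The 3 with the smallest p were Slc18a2, the vesicular monoamine transporter that loads histamine into granules (0.18, SE 0.12), Mcpt10 (-0.18, SE 0.16) and the chymase Cma1 (0.09, SE 0.09). Besides Slc18a2, the tested genes were the proteases Mcpt1, Mcpt10 and Cma1, and Fcer1g and Hpgds, which macrophages also express.

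Summed over the 7 proteases with a probe, the normalised Cy5 signal was 796 to 956 units on the control arrays and 820 to 907 on the PFOS arrays, and over the 18 mast cell genes 4560 to 5573 and 4210 to 5153. The larger sum holds Fcer1g, whose spots had 1748 to 4855 units and which macrophages also express. Without Fcer1g and Hpgds, a sum added after the values were seen, the other 16 genes gave 1545 to 1680 units in the controls and 1564 to 1683 in PFOS, and most of these probes were near background. These ranges overlap between the groups. In whole liver, fewer cells of a type and less RNA per cell cannot be told apart. Which cells held the Hdc message was not measured.

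Other cell types that can form histamine or carry Hdc were read the same way. The basophil list, with Mcpt8 and Prss34, had 4 tested genes with changes of -0.23 to -0.06. The neutrophil list had 3, S100a8, S100a9 and Lcn2, with -0.52 to -0.26, and the endocrine and platelet list 1, the platelet chemokine Pf4, with -0.13. All 8 Kupffer cell and macrophage genes were tested and all had changes below 0, from -0.78 to -0.01 with a median of -0.36. The lowest were Cd5l (-0.78, SE 0.35) and Adgre1 (-0.78, SE 0.43), and Vsig4 was at -0.39 (SE 0.22). Some of these ratios carry the error of a dim reference spot. In Cy3, Cd163 was well above background on 0 arrays, Cd5l on 4 and Marco on 5. With the processed signals Cd5l was at 0.17 (SE 0.16), and in Cy5 alone Marco was at 0.01. None of these genes was called, and the lowest limma adjusted p over the 4 lists was 0.248. The summed Cy5 signals of the 4 lists overlapped between the groups, for macrophages at 20778 to 34031 units in the controls and 17942 to 30112 in PFOS. These sums hold the same offset, which weighs most in the lists of dim genes. The tested genes of these 4 lists all had changes below 0 in the ratio under the main processing, though not in every setting. The part of these cells in the Hdc difference was not tested.

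The hepatocyte list had 8 tested genes with a median change of -0.11 and none called in the ratio. Its summed Cy5 signal did differ, at 611672 to 669481 units in the controls and 486440 to 534973 in PFOS, without overlap. This linear sum weighs the brightest genes most, here Alb, Serpina1 and Apoa1. In Cy5, Alb changed by 0.07 and Serpina1 by -0.26, and Apoa1 was the 1 gene of the list called. Apoa1, the apolipoprotein on which HDL is built, changed by -1.77 in Cy5 and by -0.38 in the ratio, where its Cy3 signal moved by -1.38. Tat, an amino acid catabolic enzyme, was at 0.84 (SE 0.25, limma adjusted p = 0.108) and was called without control 1, at 1.08. How far the lower sum rests on Apoa1, and its part in the Hdc difference, were not tested.

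Other genes of histamine handling were read beside the set. Maoa, the other monoamine oxidase, was at 0.15 (SE 0.09, limma adjusted p = 0.40) and Slc29a4, the plasma membrane monoamine transporter, at -0.34 (SE 0.17, limma adjusted p = 0.301), and neither was called. The receptors Hrh3 and Hrh4 were well above background in liver on all arrays and stood at 0.14 (SE 0.17) and -0.03 (SE 0.21), also without a call.

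No gene of histidine supply was called, in a list of 8 tested where 3.97% of all features were called. Of 12 genes of histidine transport and catabolism, 9 had a probe and 8 were tested, with changes of -0.29 to 0.39 and a median of -0.06 (lowest limma adjusted p = 0.142). Hal, histidine ammonia-lyase, which opens the main catabolic route of histidine in liver and so competes with Hdc for substrate, was at -0.26 (SE 0.12). The glutamine and histidine transporter Slc38a3 was at -0.29 (SE 0.10) and the dipeptidase Cndp2 at 0.39 (SE 0.21).

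Hdc is one of several amino acid decarboxylases, and Aoc1 also degrades the polyamine precursor putrescine, so these genes formed a further list of 16, with 13 on the array and 11 tested. The median change was 0.08, and 1 of the 11 was called, where 3.97% of all features were called. Srm, spermidine synthase, had log2 ratios of -1.05, -1.12, -1.33 and -1.18 in the controls and -0.55, -0.61, -0.87 and -0.74 in PFOS, without overlap, and rose by 0.48 (SE 0.10, limma adjusted p = 0.0305). This call was lost without controls 2, 3 or 4 and without PFOS 1, 2 or 4, at 0.50, 0.43, 0.47, 0.43, 0.45 and 0.49, and in 5 of 13 settings. Not called were Amd1, the S-adenosylmethionine decarboxylase of the same route (0.46, SE 0.14, limma adjusted p = 0.108, called without PFOS 2 at 0.57), and Sat1, the acetyltransferase that starts polyamine breakdown (-0.38, SE 0.09, limma adjusted p = 0.0569, groups without overlap). Sat1 was called in 4 settings, among them the authors' deposited table and the Cy5 channel alone. Ornithine decarboxylase, Odc1, was at -0.06 (SE 0.09) and the aromatic amino acid decarboxylase Ddc at 0.12 (SE 0.11), and neither was called. Gad1, a glutamate decarboxylase, was at 0.34 (SE 0.12, limma adjusted p = 0.164), and Gad2 and Csad were not well above background in liver on any array.

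**Figure D4:**
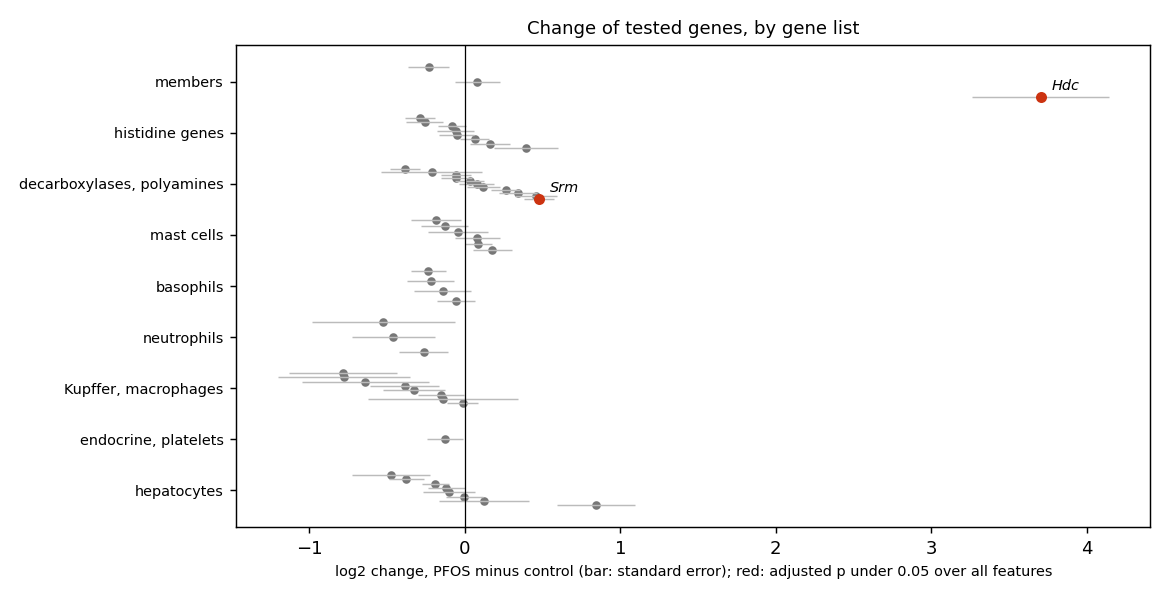
Log2 change, PFOS minus control, of the tested genes of 9 lists, with standard errors as bars and genes called over all features in red. Hdc stands at 3.70 and Srm at 0.48, and the genes of the mast cell list lie between -0.18 and 0.18.

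The genes whose log2 ratios followed Hdc most closely over the 8 arrays were, by Pearson's r, Aig1 (0.983), a hydrolase of fatty acid esters of hydroxy fatty acids, Eci1 (0.979), an isomerase that prepares unsaturated fatty acids for oxidation, Egln3 (0.975), a prolyl hydroxylase, the pantetheinase Vnn1 (0.973) and Pomgnt1 (0.971), a glycosyltransferase of the Golgi. These values describe 8 arrays that fall into 2 diets, and 141 features had an r of at least 0.9. Their differences between the diets were 1.97 (SE 0.15) for Aig1, 2.34 (SE 0.18) for Eci1, 2.37 (SE 0.29) for Vnn1, 0.33 (SE 0.09) for Egln3 and 0.28 (SE 0.07) for Pomgnt1. In each of the 5 genes control 4 was the highest control array. The choice by likeness to Hdc favours both, so neither is tested. For Vnn1 the controls were 0.38, 0.65, 1.06 and 1.76 and the PFOS arrays 3.54, 3.25, 3.65 and 2.88.

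**Figure D5:**
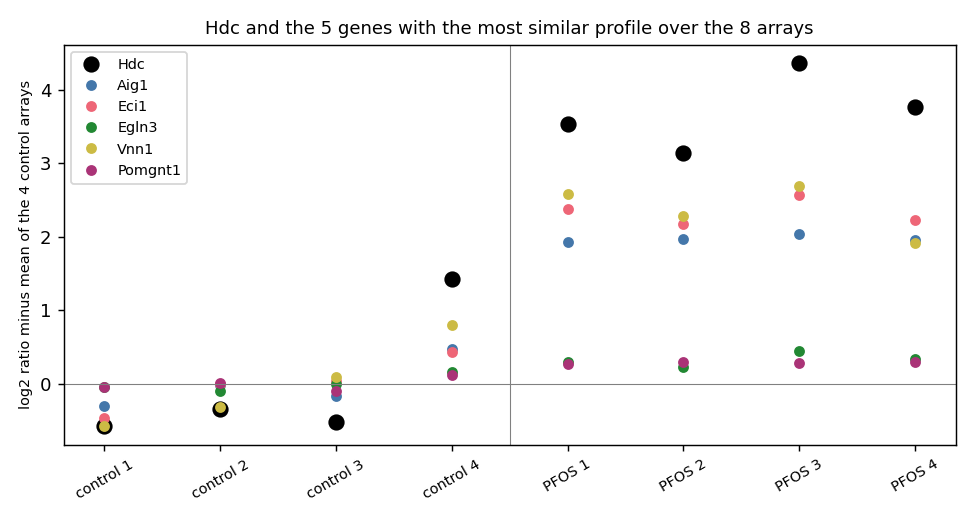
Log2 ratio of Hdc and of the 5 genes with the closest profile on each of the 8 arrays, each gene set to 0 at the mean of its 4 control arrays. Control 4 is the highest control for every gene shown, and Hdc, Vnn1, Eci1 and Aig1 separate the diets by more than Egln3 and Pomgnt1 do.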

How the data were processed

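Liver messenger RNA of 8 rats was read on two-colour Agilent rat arrays. The deposited scanner files give spot intensity on a linear scale extracted with Agilent's scanner software, release 10.7.3.1 per the submitters' processing notes, as median signals, local backgrounds and the software's processed signals, with flags (0 or 1) for spots well above background. The authors' deposited table holds log2 ratios. Its columns followed the loess-normalised ratio without background subtraction (r 0.995 to 0.997, slopes 0.989 to 0.993), which gave its scale and direction. Its medians for controls 1 to 4 and PFOS 1 to 4 were -0.048, -0.0539, -0.0518, -0.0568, -0.0518, -0.0609, -0.061 and -0.0527, and its centring is unknown.

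Groups came from the labels, and replicate numbers follow accession order and pair nothing. Median signals were corrected with normexp (offset 50) and each array was normalised by loess. Spots marked as outliers were left out and spots of a probe averaged. The Cy5 channel alone was quantile normalised. Of 30367 probes, 18004 matched a symbol through RefSeq accessions (the RefSeq gene table of GRCr8). Coordinates are given for the promoter table alone, since the array's grid is of an older build. A probe was kept where 4 or more of the 8 arrays had it well above background in Cy5. The brightest probe stood for a gene (15203 features), and groups were compared with limma 3.58.1 in R 4.3.3, two-sided, with Benjamini-Hochberg adjustment. The limma fit was tested on simulated log2 ratios, and the steps before it were not. The number of arrays limits the precision.

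The genes, lists and tests were chosen with earlier results of these data known. The rule for named genes took every member, called genes of the other lists, up to 3 genes a list by lowest p, and the 5 with the profile nearest to Hdc. Marker lists of other cells are given mainly by counts and ranges, and Hrh3, Hrh4, Odc1, Ddc, Slc18a1, Slc7a5 and the mast cell genes named as dim were added after their values were seen. Alternatives were other background, normalisation, filter, probe and slide position choices, the Cy5 channel, leaving out arrays singly, and the authors' table. Fits within 1 slide row were added later, with the data known. One gene of the list of other histamine genes is not reported here, and that list is not counted or plotted.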

Additional observations from a re-analysis of the deposited data

Results flagged for a closer look

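Among the control arrays, control 4 stood apart for Hdc. Its log2 ratio was 1.07, where the nearest control was at -0.69 and the farthest at -0.92, so that the gap made up 0.886 of the range of the group, above the 95% critical value of Dixon's test for 4 values. In the Cy5 channel it was at 10.29, where the nearest control was at 8.50 and the farthest at 8.22, a gap of 0.865 of the range. Both values come from the same spots and are not independent. They were the 2 that passed among 32 groups of 4 looked at over the 8 genes, of which 5 were too dim to be tested. Chance flags about 5% of such groups, so the flag is a description and nothing is concluded from it. Control 4 exceeded the mean of the other controls by 1.90 on the log2 scale, or 3.72-fold, and the PFOS mean exceeded control 4 by 2.28. Of the 15203 features tested, 15 had control 4 at least as far from the other controls in either direction. On the same log2 ratio scale, control 4 was the highest control for Cpa3, at -2.47 against -3.03 to -2.75, and not for Mcpt1, at -4.57 where control 3 was at -4.51. Cpa3 was not well above background in Cy5 on control 4. Its Cy5 brightness there, before normalisation, was the lowest of the controls, at 88.8 units against 89.0 to 92.3. Nothing is read from that ratio.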

How the results depend on the processing

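Hdc kept its direction in all 13 other settings, at 3.54 to 3.99, though some of these could not move it. It also did so with each array left out, at 3.48 to 4.18, and within the slide rows, at 3.79 and 3.61. The count of called genes of the set, which the choice of Hdc fixes and from which nothing is read, was 1 in each of these except slide row 2 alone, where limma called 0 of 3 and 1 had an unadjusted p under 0.05. Maob and Mcpt1 were called in none of them. Over all features 604 were called, against 239 with median centring, 268 with slide column as a block, 350 to 519 with each array left out (350, 363 and 381 without controls 1, 2 and 3, 369, 387 and 361 without PFOS 1, 2 and 3), and 93 and 32 within slide rows 1 and 2, which hold fewer arrays. The cause of the other drops was not tested. No paired analysis was possible because the labels give no replicate numbers that the groups share. Signal over background limits what can be said of Hnmt, Hrh1, Tpsb2, Cpa3 and Aoc1.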

Other observations

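A pair of dim genes from the transport lists did not enter the test. Slc18a1, a vesicular monoamine transporter of endocrine cells, was well above background in Cy5 on PFOS 1, 2 and 3, with 102, 155 and 102 units, and on no control array, where it had 76.0 to 92.3 units, and PFOS 4 was at 78.5. Its log2 ratios were 0.13, 0.93, 0.47 and -0.27 in PFOS and -0.45, -0.02, -0.38 and 0.00118 in the controls, so the groups overlapped. Slc7a5, a transporter of large neutral amino acids including histidine, was well above background on PFOS 1 and 2 and on no control array, with overlapping log2 ratios of -0.92 to -0.20 in PFOS and -1.25 to -0.86 in the controls.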
